A study of Mus musculus with 4 samples.

Results

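Narrow PHF2 peaks at gene ends were the 363 peaks of control muscle that were called under 400 bp wide and lay within 1 kb of either end of a protein-coding gene. They were 363 of 1621 peaks in the control PHF2 list (22.4%), and 31.5% of the 1151 peaks at gene ends. The members were chosen by their measured width in the control library, so their low height relative to wider peaks is a description and not a finding. For 98.6% of those whose gene has a known strand, the nearer gene end was a transcription start. The members touched 417 genes (1.91% of all protein-coding genes), among them genes of splicing, ubiquitin transfer, membrane traffic, the sarcomere and calcium handling. Few of them were met by a peak in the Phf2 KO library: 9 of 363 overlapped one (2.48%), against 7.03% of all control PHF2 peaks. Low overlap was not particular to them. The share was 3.28% for gene-end peaks of 400 to 499 bp, 2.88% at 500 to 749 bp and 27.5% from 1000 bp.

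PHF2 is a chromatin protein with a PHD finger, which binds histone H3 methylated at lysine 4, the mark of active promoters, and a JmjC domain of the histone demethylase family. CUT&RUN uses an antibody to direct a nuclease that cuts out the DNA around its target, and a peak is a stretch where the released fragments pile up above the local background. Promoters rich in CpG, the CG dinucleotide in which cytosine can be methylated, usually drive genes that are active in many tissues and carry lysine 4 methylation. A divergent promoter lies between the starts of a pair of genes on opposite strands.

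The tissue was gastrocnemius, a calf muscle, from male C57BL/6 mice aged 4 weeks. All groups carried Phf2 flox/flox: the Ctrl group was Acta1 Cre- and the KO group Acta1 Cre+. The Acta1 promoter is active in skeletal muscle fibres, so endothelial, connective tissue, immune and satellite cells of the KO muscle still have the gene. For both genotypes 1 library was made with an antibody to PHF2 and 1 with IgG, which binds no particular protein, so there were 4 groups of 1 library. With 1 library per group no test across samples was possible. Intervals are at the 95% level and cover counting error only. The comparisons are between libraries, not between genotypes. The Phf2 gene held 0 peaks in both PHF2 lists, within it or 1 kb around it, and peak lists do not measure its deletion, so these files do not check the genotype labels. In bulk tissue, fewer cells of a type and less binding per cell cannot be told apart.

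The bases in front of the starts show how promoters at these peaks differ. For 6 members whose peak reached upstream of the start, the peak-covered part of the 250 bases before the start is printed 5′ to 3′ on the strand of the gene, from RefSeq on GRCm38.p6, the assembly behind mm10. Capitals mark CpG. They were taken from members with at least 95 covered bases, no other gene in those bases and an outermost listed start, and were picked after their values were seen to span low to high CpG content. Klhl31 (chr9:77636601-77636731, plus strand) encodes a Kelch-like protein of skeletal muscle, Cd164 (chr10:41519250-41519459, plus strand) a sialomucin of the endosome and cell surface, and Ppp1r3c (chr19:36736605-36736708, minus strand) a subunit that brings protein phosphatase to glycogen. Tmem59 (chr4:107178380-107178629, plus strand) shares a divergent promoter with Tceanc2. Wipi1 (chr11:109611390-109611621, minus strand) encodes a phosphoinositide-binding protein of autophagy, and Cdkn2c (chr4:109666837-109667006, minus strand) an inhibitor of the cyclin D kinases.
Klhl31: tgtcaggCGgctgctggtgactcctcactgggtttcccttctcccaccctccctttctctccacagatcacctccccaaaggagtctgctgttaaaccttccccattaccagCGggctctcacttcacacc
Cd164: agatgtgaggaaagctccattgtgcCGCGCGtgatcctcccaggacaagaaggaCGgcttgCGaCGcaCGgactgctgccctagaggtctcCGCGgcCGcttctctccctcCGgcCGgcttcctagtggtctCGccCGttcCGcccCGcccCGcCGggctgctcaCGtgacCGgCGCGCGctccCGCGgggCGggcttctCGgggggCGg
Ppp1r3c: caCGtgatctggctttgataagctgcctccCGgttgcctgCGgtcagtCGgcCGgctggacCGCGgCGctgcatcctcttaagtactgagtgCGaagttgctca
Tmem59: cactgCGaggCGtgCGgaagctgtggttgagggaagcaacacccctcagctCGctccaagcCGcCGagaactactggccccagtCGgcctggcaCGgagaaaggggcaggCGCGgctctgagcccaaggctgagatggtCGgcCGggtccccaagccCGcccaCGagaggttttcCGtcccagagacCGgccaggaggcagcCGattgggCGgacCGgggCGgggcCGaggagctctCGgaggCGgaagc
Wipi1: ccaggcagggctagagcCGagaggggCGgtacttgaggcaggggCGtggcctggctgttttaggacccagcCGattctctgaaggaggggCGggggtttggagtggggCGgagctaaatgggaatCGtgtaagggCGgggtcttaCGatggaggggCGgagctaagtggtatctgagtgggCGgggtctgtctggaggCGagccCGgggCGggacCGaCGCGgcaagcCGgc
Cdkn2c: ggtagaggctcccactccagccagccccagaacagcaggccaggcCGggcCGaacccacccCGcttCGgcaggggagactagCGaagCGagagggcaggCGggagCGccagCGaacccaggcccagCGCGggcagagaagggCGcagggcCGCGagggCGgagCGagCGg
Klhl31 held 2 CpG in 131 bases, or 1.53 per 100. Cd164 held 28 in 210 bases (13.3 per 100), Ppp1r3c 9 in 104 (8.65 per 100), Tmem59 23 in 250 (9.20 per 100), Wipi1 18 in 232 (7.76 per 100) and Cdkn2c 17 in 170. Thus the Klhl31 bases were poor in CpG and the other 5 stretches were rich in it.

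CpG-rich promoters were the rule among the members' genes. A RefSeq promoter window, from 250 bases before to 50 after a listed start, was found for 342 of the 417 genes. Each gene was given its listed start nearest the summit, which lay within 1 kb of it for 319 genes. The CpG ratio, the number of CpG over the number expected from the C and G content of the 300 bases, had a median of 0.843 at these genes. It was 0.853 at the 676 matched genes of wide gene-end peaks (400 bp or more) and 0.567 over all 21263 windows of protein-coding genes. A ratio of 0.6 or more was found in 84.8% of the members' promoters (interval 80.6 to 88.2), in 85.9% of those at wide peaks and in 47.7% of all. The median GC content was 65.7% at the members' genes against 56.3% over all windows. The genes of narrow and wide peaks thus had promoters of like CpG content, and both stood above the windows of all genes. Those windows covered 17492 genes, some with several windows. With a start within 1 kb of the summit, the ratio was 0.6 or more in 87.8% of 319 windows at members (83.7 to 90.9). At wide peaks it was so in 90.5% of 610 (87.9 to 92.6). Where the start lay within 250 bp of the summit (165 genes), the median ratio was 0.880.

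Of 10 transcription factor motifs searched on both strands of the same windows, the GC box (GGGCGG, read by SP and Krüppel-like factors) was the most common. It was present in 74.3% of the members' promoters, 74.4% of those at wide peaks, 46.2% of all windows and 74.1% of all windows with a CpG ratio of 0.6 or more, a class that holds 84.8% of the members' windows. Among windows with that CpG ratio alone, it was present in 79.7% at the members (74.6 to 83.9), 79.0% at wide peaks (75.5 to 82.1) and 74.1% of all (73.3 to 75). The CCAAT box of NF-Y (CCAAT) was found in 36.3% of the members' windows and 38.2% of all. The E-box of the MyoD type (CAGCTG) was found in 17.3% of the members' windows (13.6 to 21.6), 12.0% at wide peaks (9.75 to 14.6), 15.6% of all and 12.8% of the CpG-rich windows. The intervals of narrow and wide peaks overlap, which does not settle whether the shares differ, and the difference was not tested. The E-box of USF, MYC and clock factors (CACGTG) was found in 11.1%, 8.14%, 7.84% and 11.4% of the same sets in turn. The ETS core (CCGGAAG) was in 16.1% of the members' windows (12.6 to 20.3), 12.3% at wide peaks and 11.6% of all. Within the CpG-rich windows it was in 18.3% at the members (14.3 to 23.1), 13.4% at wide peaks and 19.7% of all. The remaining shares at members were 5.26% for the NRF1 core (GCATGCGC), 7.60% for the TATA box (TATAAA), 2.92% each for the CRE (TGACGTCA) and AP-1 (TGANTCA), and 1.75% for FoxO (GTAAACA). Over all windows the TATA box stood at 12.6% (members 5.24 to 10.9) and AP-1 at 6.99% (members 1.60 to 5.30), both above the members' intervals, and the NRF1 core at 3.52%, the CRE at 2.23% and FoxO at 3.01%. Among CpG-rich windows alone, the TATA box was in 5.86% at the members and 5.58% of all, and AP-1 in 3.10% and 3.45%. A match is a description of the letters and not a binding site.

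**Figure D1:**
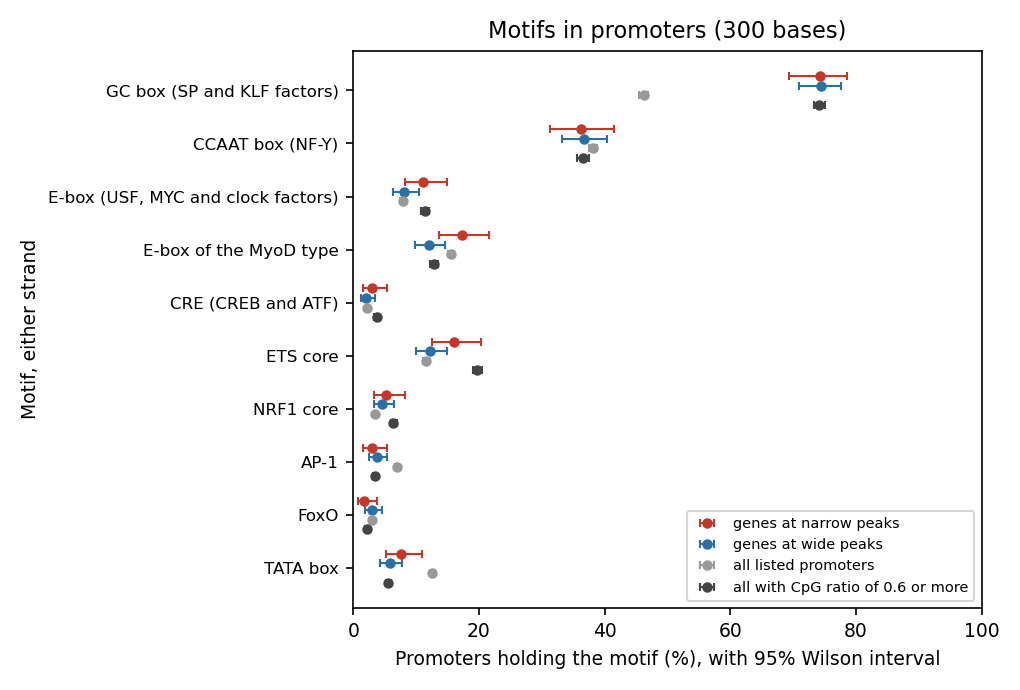
Share of promoter windows of 300 bases that hold each motif on either strand (x axis, percent, with 95% Wilson intervals) at genes of narrow peaks, genes of wide peaks, all listed promoters and all listed promoters with a CpG ratio of 0.6 or more. The GC box stands at 74.3% for all genes of narrow peaks, 74.4% for those of wide peaks and 46.2% for all promoters. The class of CpG-rich promoters (74.1%) is drawn for reference and is not matched to the first 2 sets, which hold CpG-poor promoters too.

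The members were 292 to 399 bp wide, with a median of 319 bp. A width of 292 bp, the shortest in the list, was recorded for 80 of them (22%, 18.1 to 26.6), and for 34 of the 171 peaks under 400 bp that lay away from gene ends. The authors' fold enrichment at the summit ran from 3.33 to 10.2 with a median of 5.98, and the number of tags (sequenced fragments) at the summit from 8 to 30 with a median of 14. Wide gene-end peaks had a median fold of 6.84 and a median of 17 tags. Within the members, width went with little change in height: the median fold was 5.66 at 292 bp and 5.98 at 350 to 399 bp, with medians of 12 and 14 tags. Neither IgG list (77 peaks in Ctrl, 152 in KO) had a peak that overlapped a member, and 0 of 363 allows a share of up to 0.826%. The same count was 0 of 788 for wide peaks and 0 of 1621 for all control PHF2 peaks.

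**Figure D2:**
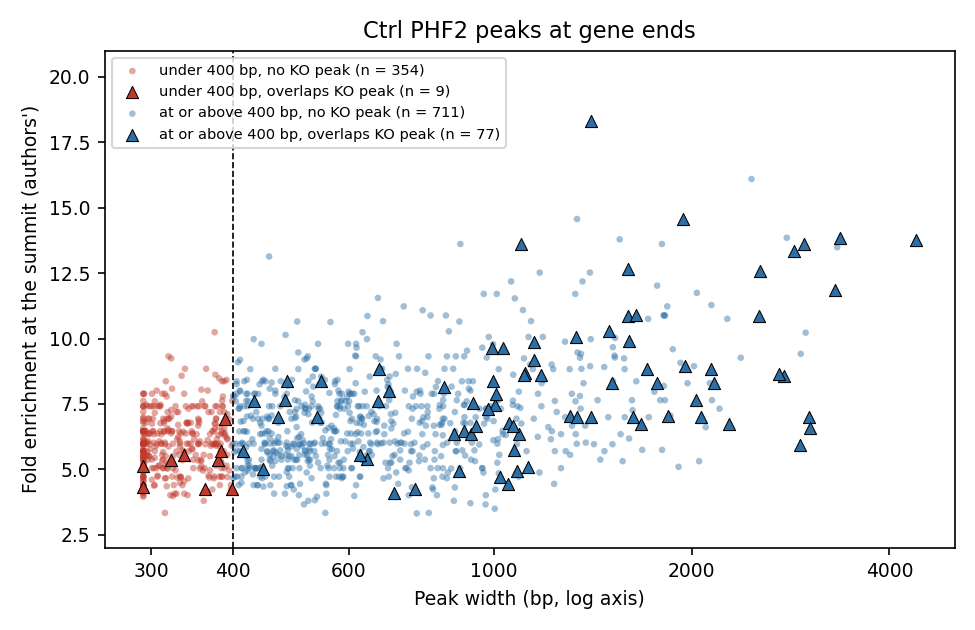
Each point is a control PHF2 peak at a gene end, by its width (x axis, bp, log axis) and the authors' fold enrichment at the summit (y axis). Triangles overlap a KO PHF2 peak. The 363 members lie left of the dashed line at 400 bp, between 3.33 and 10.2 fold, and 9 of them are triangles.

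At the limit of width the peaks on both sides were alike in height. The widest members included those of Samd4 (397 bp, 4.23), Cdk17 (398 bp, 4.23), B3gnt2 (398 bp, 5.90) and Celf1 (399 bp, 7.62). The next 5 gene-end peaks were those of Lamc1 (400 bp, 4.66), Eepd1 (400 bp, 7.80), Serinc5 (400 bp, 5.98), Ccng2 (402 bp, 7.79) and Hnrnph3 with Pbld2 (402 bp, 5.66).

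The highest member was at Jarid2 (Gene ID 16468), which encodes a DNA-binding partner of the Polycomb complex that methylates histone H3 at lysine 27. Its peak, at chromosome 13, 44730947 to 44731321 in mm10, had a fold of 10.2 and 30 tags (Poisson interval 20.2 to 42.8). A peak of 2190 bp inside the gene lay next to it, with a fold of 11.1. Marchf8, a membrane-bound ubiquitin ligase, followed with a fold of 9.32 and 18 tags, and Ddx39a, an RNA helicase of mRNA export, with 9.24 and 21 tags. Spry4, a Sprouty inhibitor of growth factor signalling, and Rps6ka3, a kinase downstream of ERK, both had 8.84 and 17 tags. The intervals of their tag numbers overlap (10.7 to 28.4 for Marchf8, 9.90 to 27.2 for Spry4), so their order is not resolved.

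Cited2, a transcriptional cofactor, had a fold of 8.62 and 25 tags. Next came Cstad (8.58), Zbtb4 (8.48), a zinc finger protein that binds methylated CpG, and Slc35e4 (8.42). Cdc73, a subunit of the PAF elongation complex, the peak of Cnbp and Gm44064, and Ddx3x, an RNA helicase on the X chromosome, all had a fold of 8.37 and 16 tags. Itga6, the laminin-binding integrin alpha chain, had 8.09, and Iws1, an elongation factor, 8.05. Nfe2l1, the transcription factor that induces proteasome genes, and Nrep both had 8.01 and 18 tags. The peaks of Obsl1 with Inha, Ankib1 with Krit1, Alpk3, Smad1, Klhl31 and Pde12 tied at a fold of 7.89 with 15 tags. Several of these encode muscle proteins, since Obsl1 is a cytoskeletal adaptor related to obscurin and Alpk3 a kinase-like protein of the sarcomere.

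Smad1, the signal transducer of BMP receptors, carried 2 members, 161 bp apart at chromosome 8, 79398739 to 79399030 and 79399192 to 79399484, both with 15 tags. Another 9 genes carried 2 members each: Cdk17, Ddx54, Lats1, Pcmt1, Rita1, Snx18, Snx9, Usp46 and Zcchc14. Lats1 and Pcmt1 shared the same 2 members, and so did Ddx54 and Rita1. In all, 61 members (16.8%, 13.3 to 21) lay within 1 kb of another control PHF2 peak. The share was 19.5% for wide peaks, a difference of 2.74 percentage points (-2.20 to 7.29), and 35.7% for peaks away from gene ends. The neighbour had the higher fold for 38 of the 61, and was itself wide for 39, narrow for 16 and away from gene ends for 6. Examples are Cd164, with a fold of 7.41 beside a wide peak of 9.80, Pkm (7.79 beside 8.37) and Myf6 (6.94 beside 7.89). The other 302 members stood alone.

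The members lay at gene starts, mostly just inside the gene. The nearer gene end was a start for 287 of the 291 members whose gene has a listed strand (98.6%, 96.5 to 99.5), and for 605 of 613 wide peaks (98.7%). The summit lay inside the nearest gene for 303 members (83.5%). Over all 363 members it lay at a median of 295 bp from the nearer gene end (quartiles 190 and 585.5), against 383.5 bp for wide peaks. Of the 286 summits within 1 kb of a listed start, 219 were downstream of it (76.6%) and the median position was 194.5 bp downstream, against 252 bp for wide peaks. The bin from 200 to 300 bp downstream held 57 of them (19.9%), more than any other 100-bp bin. Summits within 250 bp of the start made up 53.8% of the narrow peaks (154 of 286, 48.1 to 59.5) and 230 of 575 (interval 36.1 to 44.1%) of the wide ones. The rule used width and the distance of the peak from a gene end, and a wider peak can meet the 1 kb window with its summit further away, so these distances are given as a description.

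**Figure D3:**
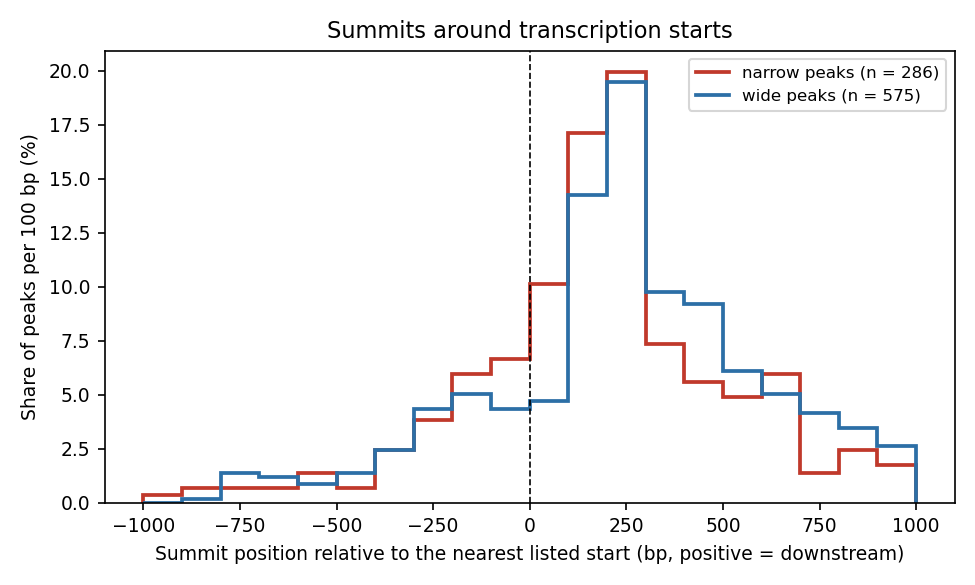
Position of the peak summit relative to the nearest listed transcription start (x axis, bp, positive is downstream) as the share of peaks in each 100-bp bin (y axis, percent), for 286 narrow and 575 wide peaks. Both lines are highest from 200 to 300 bp downstream, where narrow peaks stand at 19.9%.

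In 4 members the nearer end was not a start. That of Cited2 lay 1214 bp from the gene's far end and 1232 bp from its start, in a gene of few kilobases, and that of Gadd45g, a stress-induced gene, 279 bp from the far end. The peak of the histone genes H2ac21, H2ac20 and H2bc21 lay 217 bp from the far end and 250 bp from the start of H2ac20. Histone genes are near-identical copies, and how reads that match several copies were handled is not given in the sources used here. That of Tmem253 lay past its far end, 211 bp upstream of a listed start of Zfp219. Each of the 4 thus lay in a short gene or near a further start.

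A single gene was touched by 300 members, 2 genes by 62 and 3 genes by 1. Of 52 members with 2 genes of listed strand, 45 lay at starts on opposite strands, which is 12.4% of all members (9.40 to 16.2), against 8.50% of wide peaks (6.75 to 10.7). The starts were a median of 264 bp apart at the members, and the summit lay between them in 13 of the 45. Tceanc2 and Tmem59 are an example, with a fold of 5.98 and 11 tags. The peak covered all of the upstream bases printed for Tmem59, and its summit lay 34 bp upstream of the Tmem59 start and 230 bp upstream of the Tceanc2 start. Pno1, a factor of small ribosomal subunit assembly, and Wdr92 were a further pair, with a fold of 5.98 and the summit 154 and 150 bp upstream.

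The 417 genes at members are 1.91% of the 21887 protein-coding genes, and the 851 genes at wide peaks 3.89%. In both sets were 43 genes, 10.3% of the first and 5.05% of the second. Across 38 gene lists, 147 of the members' genes fell in at least 1 list and 270 in none. In 30 lists the share of genes at a member was above 1.91%, and in 17 of them the whole interval was. The lists were chosen with earlier results of these data known. The 1.91% also covers 1463 olfactory and vomeronasal receptor genes, of which 0 were at a member. These counts of lists are therefore a description and do not show enrichment. A member at 2 or more genes (63 of 363) was counted for each of them. The lists' shares describe these libraries, with no test.

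**Figure D4:**
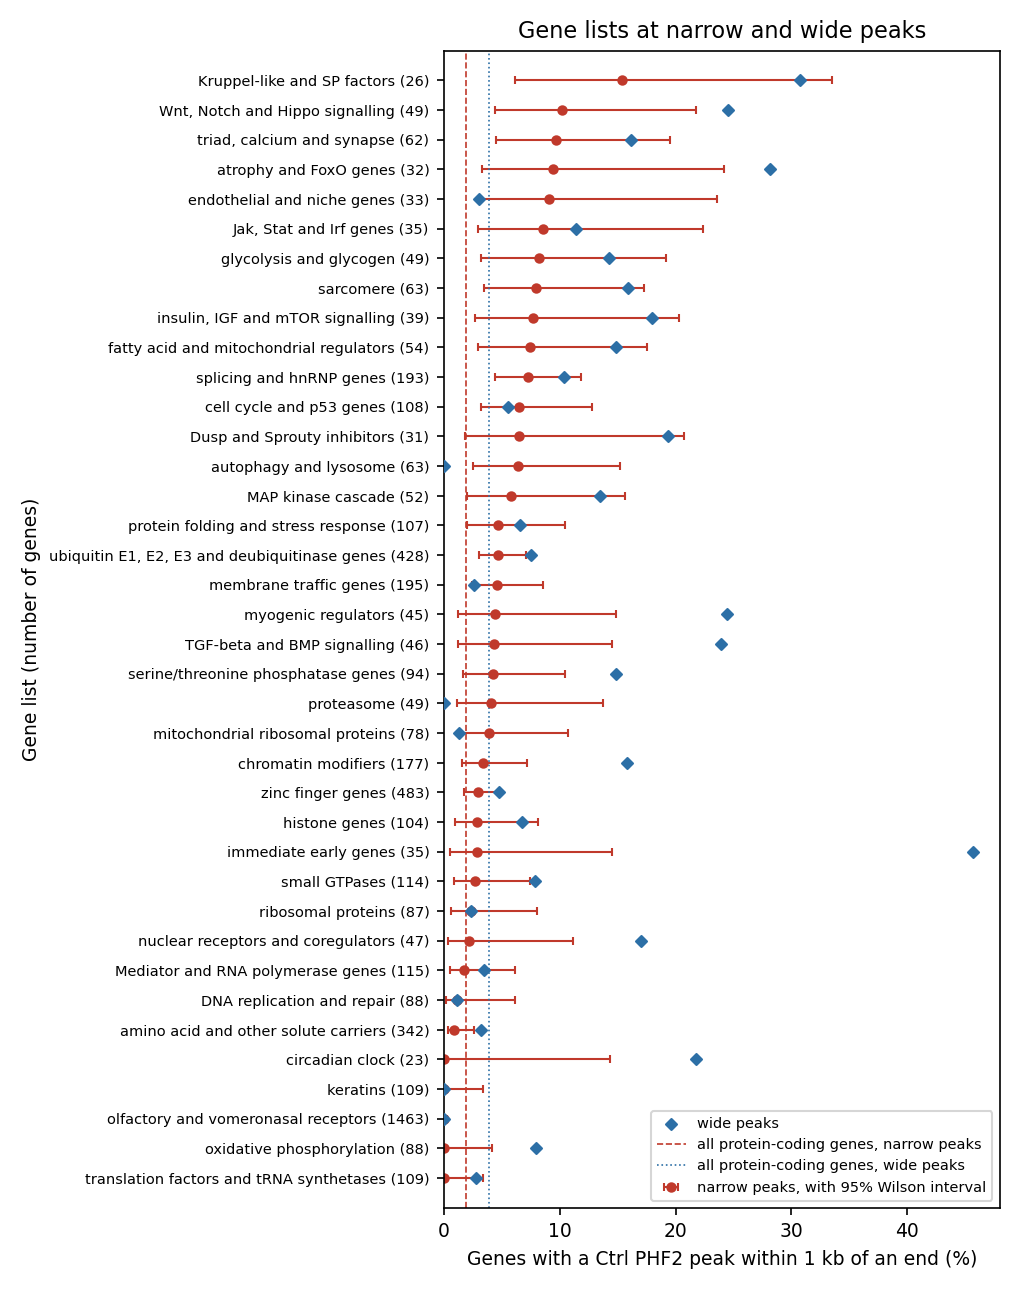
Share of the genes in each of 38 lists that have a narrow (circles, with 95% Wilson intervals) or a wide control PHF2 peak (diamonds) within 1 kb of an end (x axis, percent). Dashed and dotted lines give all protein-coding genes, 1.91% for narrow and 3.89% for wide peaks. Autophagy and proteasome genes have circles above the line and diamonds at 0, whereas immediate early genes have the highest diamond.

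Of 193 splicing and hnRNP genes, 14 were at a member (7.25%, 4.37 to 11.8) and 20 at a wide peak (10.4%), both above the shares of all genes. They included Ddx39a and Ddx3x, Snrpe, a core protein of spliceosomal snRNPs (fold 7.41), and Prpf39, a U1-associated splicing factor (7.41). The hnRNP genes Hnrnpa3 (7.16), Hnrnpc (6.94), Hnrnpk (4.72) and Hnrnpab (4.40) spanned much of the range. The peaks of Hnrnpc and Hnrnpk also lay at Rpgrip1 and Rmi1, in turn. Mitochondrial ribosomal proteins had 3 of 78 genes at members, namely Mrpl1, Mrpl18 and Mrps18b (7.41, 7.41 and 6.84), and 1 at a wide peak. The Mrpl18 peak also lay at Tcp1 and that of Mrps18b at Ppp1r10, and both are counted in the lists of those genes too. Cytosolic ribosomal proteins had 2 of 87, and translation factors and tRNA synthetases 0 of 109. The intervals of these last 3 lists include the share of all genes.

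Of 428 genes of ubiquitin transfer and removal, 20 were at a member (4.67%). Beside Marchf8 and Klhl31 they included Rnf19b and Ube2e1 (both 7.41), the deubiquitinase Usp5 (7.32), and Cul3 (5.98), the scaffold that Kelch-like adaptors bind. The Usp5 peak also lay at Cdca3. Autophagy and lysosome genes had 4 of 63 at members (6.35%) and 0 at wide peaks, and 2 at members with a 500 bp window. The 4 were Gabarap, a ubiquitin-like protein of the autophagosome (6.15, 19 tags), Wipi1 (5.14), and the proton pump subunits Atp6v0a1 (5.03) and Atp6v1a (4.69). The Gabarap peak lay at the far end of that gene and at the start of Phf23, with its summit 4685 bp downstream of the listed Gabarap start. Proteasome genes had 2 of 49 at members (Psmd11 6.46, Psmd12 4.07) and 0 at wide peaks, with an interval of 1.13 to 13.7% that includes the 1.91% of all genes. Of 195 membrane traffic genes, 9 were at members (4.62%) and 5 at wide peaks, among them the cargo receptor Tmed10 (7.41), the sorting nexins Snx9 and Snx18 (6.94 and 6.57) and the SNARE Vamp4 (6.46). In the autophagy, proteasome and traffic lists the members' count was above that of wide peaks, although wide peaks touched more genes in all. So it was for mitochondrial ribosomal proteins (3 and 1), endothelial and niche genes (3 and 1) and cell cycle and p53 genes (7 and 6). It was so in no other list. These counts are small, and the traffic count at members was 5 with a width under 350 bp. Chaperone and stress genes had 5 of 107, with Nfe2l1, Tcp1 (7.41), Dnajb6 (6.84) and Dnajc14 (6.70) the highest. The peaks of Tcp1 and Dnajc14 also lay at Mrpl18 and Tmem198b, in turn.

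Muscle genes were present in both width classes. Sarcomere genes had 5 of 63 at members (7.94%) and 10 at wide peaks. Mybph, a myosin-binding protein, had a fold of 7.47, Capza2, a subunit of actin capping protein, 6.88, Pdlim3, a Z-disc protein, 6.78 and Mybpc2, the fast myosin-binding protein C, 5.14. Genes of the triad, calcium handling and synapse had 6 of 62 (9.68%). Trdn encodes triadin, which anchors calsequestrin, the calcium store protein encoded by Casq1, near the release channel. They had folds of 7.41 and 6.26. Casq1 had 25 tags (16.2 to 36.9), and a wide peak lay 333 bp away. Kcnj2, an inward rectifier potassium channel, had 6.37.

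Glycolysis and glycogen genes had 4 of 49 at members (8.16%), namely Pkm (7.79), the muscle glycogen synthase Gys1 (7.20), Ppp1r3c (6.94) and the phosphorylase kinase subunit Phka1 (5.50). The Gys1 peak also lay at Ruvbl2. The list of fatty acid and mitochondrial regulators had 4 of 54: the nuclear receptor Ppard (6.19), lipoprotein lipase Lpl (5.96), the nuclear activator of mitochondrial genes Nrf1 (5.70) and Tfb2m (3.80, a mitochondrial transcription factor). The Tfb2m peak also lay at Cnst. Oxidative phosphorylation subunits had 0 of 88 at members and 7 at wide peaks. Their interval at members, 0 to 4.18%, includes the 1.91% of all genes. Atrophy and FoxO genes had 3 of 32, and Fbxo32, the muscle ubiquitin ligase atrogin-1, had a fold of 6.31 and 13 tags. Psmd11 (6.46) and Foxo3 (4.65) were the others. Myogenic regulators had 2 of 45 at members, Celf1 (7.62) and Myf6 (6.94), against 11 at wide peaks. The interval at members, 1.23 to 14.8%, again includes the share of all genes.

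Over all genes, wide peaks touched 851 and the members 417. Wnt, Notch and Hippo genes had 5 of 49 at members (10.2%) and 12 at wide peaks. The Wnt receptors Fzd8 and Fzd4 had folds of 7.60 and 4.89, the Hippo kinase Lats1 7.11 and the Notch target Hes1 4.69. The Fzd4 peak also lay at Tmem135. Krüppel-like and SP factors had 4 of 26 (15.4%) and 8 at wide peaks, and 3 of the 4 (Klf6, Sp3 and Klf3) also had a wide peak. The member of Klf3 also lay at Gm38457. Insulin, IGF and mTOR signalling had 3 of 39 and 7 at wide peaks. Those at members included Mlst8, a subunit of the mTOR complexes (7.19), and the receptor Igf1r (5.05). TGF-beta and BMP signalling had 2 of 46 at members, Smad1 and the myostatin receptor Acvr2b (4.72), and 11 at wide peaks. Immediate early genes had 1 of 35, Klf6 (5.90), and 16 at wide peaks. Clock genes had 0 of 23 and 5. At members the intervals of the TGF-beta, immediate early and clock lists were 1.20 to 14.5%, 0.506 to 14.5% and 0 to 14.3%. Each includes the 1.91% of all genes.

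Among the remaining lists, that of cell cycle and p53 genes had 7 of 108 at members and 6 at wide peaks. Its highest were Cdc73, the PAF complex subunit named above, Trp53 (6.76, 18 tags), Trp53bp2 (6.46) and Cdc40 (5.98). A place in this list is not evidence of a role in the cell cycle. The peaks of Trp53 and Cdc40 also lay at Wrap53 and Wasf1, in turn. Chromatin modifiers had 6 of 177 (1.56 to 7.20%) against 28 at wide peaks. They included Jarid2, Jmjd6 (6.91), a JmjC-domain hydroxylase, Phf23, a PHD finger protein (6.15), Ino80d (5.98) and the lysine 4 demethylase Kdm5a (4.55, 8 tags). The Phf23 peak is the same one that was counted for Gabarap. The peaks of Jmjd6 and Kdm5a also lay at Mettl23 and Ccdc77, in turn. Zinc finger genes had 14 of 483 (2.90%, 1.73 to 4.81) and serine/threonine phosphatase genes 4 of 94 (1.67 to 10.4%). The intervals of the chromatin, zinc finger and phosphatase lists include the 1.91% of all genes. Jak, Stat and Irf genes had 3 of 35 (4 at wide peaks) with Jak2 at 6.15, and the MAP kinase cascade 3 of 52 (7 at wide peaks) with Map2k6 at 6.46. Solute carriers had 3 of 342 (0.299 to 2.55%, which includes the 1.91% of all genes), and olfactory receptors and keratins 0 of 1463 and 0 of 109. The intervals of the olfactory and keratin lists were 0 to 0.262% and 0 to 3.40%, and that of keratins includes the 1.91%.

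Genes that mark cell types were looked for among the members. Of 4 endothelial markers, 2 had a member: Cdh5, the cadherin of endothelial junctions (fold 5.98, 11 tags), and Flt1, a VEGF receptor (6.02, 17 tags), while 0 had a wide peak. Of 7 muscle fibre markers, 0 had a member and 1, Des, had a wide peak. Satellite cell, fibro-adipogenic and immune markers (4, 3 and 3 genes) had 0 of either. Peaks at endothelial genes show DNA recovered from the tissue, and which cells gave it was not tested.

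Overlap with the KO PHF2 list, which the choice of members did not use, was 9 of 363 (2.48%, 1.31 to 4.64). Over all control PHF2 peaks it was 7.03%, and for wide gene-end peaks 9.77% (77 of 788, 7.89 to 12.0), which is 7.29 percentage points above the members (4.42 to 9.85). The KO list was short, with 161 peaks, of which 8 (4.97%) met a member, 86 a wide peak and 39 no control peak. A peak missing from that list was not called there, and its reads are unknown. Of the members, 307 (84.6%) had a -log10 p at or above that of the weakest KO peak, against 92.6% of wide peaks and 90.3% of all control PHF2 peaks.

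Narrow and wide peaks were also set side by side within classes of summit tags. At 8 to 11 tags, 2 of 78 narrow and 1 of 53 wide peaks met a KO peak (2.56% and 1.89%). At 12 to 14 tags it was 1 of 158 and 4 of 191 (0.633% and 2.09%), and at 15 to 17 tags 4 of 88 and 9 of 202 (4.55% and 4.46%). At 18 to 22 tags it was 2 of 34 and 29 of 218 (5.88%, 1.63 to 19.1, and 13.3%, 9.42 to 18.5). Above that, wide peaks reached 27.4%, and 0 of 5 narrow peaks says little. The narrow share was the lower in 3 of the 5 classes. The intervals overlap in each class, and counts this small do not show that the shares are alike. By width, the share was 4.59% at 350 to 399 bp, 3.28% at 400 to 499 bp and 2.88% at 500 to 749 bp, and reached 27.5% from 1000 bp. An overlap of 1 bp is by construction easier to meet for a longer peak. With the control summit required inside the KO peak, the shares were 1.93% for narrow and 5.46% for wide peaks.

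**Figure D5:**
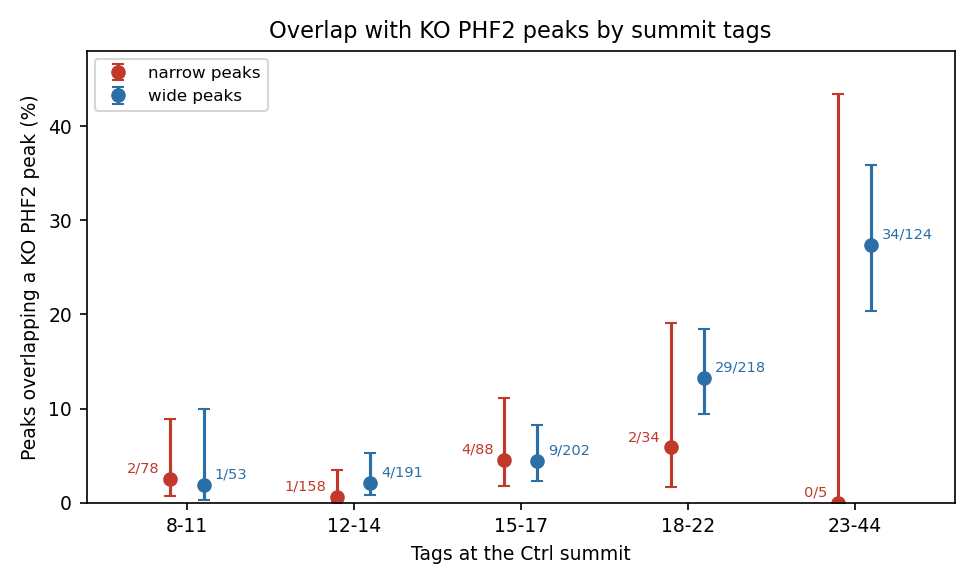
Share of control PHF2 peaks at gene ends that overlap a KO PHF2 peak (y axis, percent, with 95% Wilson intervals) by the number of tags at the control summit (x axis), with counts beside the points. The intervals of narrow and wide peaks overlap in every class, and wide peaks reach 27.4% at 23 to 44 tags.

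The 9 members that met a KO peak lay at 8 genes and met 8 KO peaks. Rhoj, a small GTPase of endothelial cells, had a fold of 6.94 with 13 tags in Ctrl and 6.40 with 15 tags in KO. Rnf168, a ubiquitin ligase of the DNA damage response, had 5.37 with 15 tags and 6.15 with 12, and Nptn, the adhesion protein neuroplastin, 5.14 with 11 tags and, in KO, 16 tags. Frmd6, a Hippo pathway scaffold, had 4.34 with 11 and 6.60 with 13, and the receptor Notch1 4.23 with 18 tags in Ctrl and 7.84 with 18 in KO. Folds of the 2 lists rest on different backgrounds, and the counting intervals of the tags overlap in each pair. For Rhoj, for instance, they were 6.92 to 22.2 and 8.40 to 24.7.

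Other overlaps were short. Sp3, a GC-box factor, overlapped by 28 bp (5.70 with 16 tags and 6.64 with 13). Vim, the intermediate filament protein of mesenchymal cells, overlapped by 17 bp (5.55 with 17 tags and 6.64 with 13), with the summits 651 bp apart. Both members of Cdk17, a cyclin-dependent kinase, met the same KO peak (6.64, 13 tags), from a fold of 5.37 and of 4.23. In 5 more members a KO peak lay within 1 kb without touching: Cited2, Klf6, Igf1r, Ddx6 and Foxo3. Counted by gene, 12 of the 417 (2.88%) had a KO peak at an end, against 76 of the 851 genes at wide peaks (8.93%) and 106 of all 21887 protein-coding genes. Of members alone within 1 kb, 6 of 302 met a KO peak (1.99%), and of those with a neighbour 3 of 61 (4.92%).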

How the data were processed

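The titles of the samples gave the groups. Reads were aligned and peaks called by the authors with tools that include Bowtie2 and MACS2 on mm10, per the submitters' processing notes. Versions, settings, duplicate handling and the control library are not given in the sources. Each deposited list has 10 narrowPeak columns: the authors' fold is the ratio of summit pileup to local background, beside the authors' -log10 p and -log10 q. The deposited score was not used. Tags at the summit were solved from the fold, (pileup + 1) / (background + 1), and the Poisson p: all 309 distinct Ctrl and 84 KO value pairs gave 1 whole number, within 0.0005, at factors of 0.649 and 0.609. Read totals are unknown. PCR copies may be among the tags.

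Width was end minus start, distance ran from the peak to a gene end, and overlap meant at least 1 bp. Gene ends were read from RefSeq (GRCm38.p6), in a table without strand or exons, and strands and starts from the promoter table of the same build. Exonic or intronic position was not analysed. Shares carry Wilson, differences Newcombe and tags exact Poisson 95% intervals. A share of 0 carries the limit of 3 counts. Named genes were those at the 20 highest members by fold, with ties, up to 4 per list (some more were named after their values were seen), those meeting a KO peak and 5 on each side of the width limit. Not every gene chosen so is reported. The members, lists and comparisons were chosen with earlier results of these data known. The code was tested on simulated data. Computation used pandas 2.3.3, SciPy 1.17.1 and NumPy 2.4.6 under Python 3.11.15, with figures from matplotlib 3.10.9.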

Additional observations from a re-analysis of the deposited data

How the results depend on the processing

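Of 33 alternative values for the main results, 29 stayed within the interval of the main value or within 1.5 times the count. The number of members ran from 254 (under 350 bp) to 463 (under 450 bp). The share meeting a KO peak was 1.37% with a 500 bp window and 3.86% with a KO peak within 1 kb. With a reciprocal overlap of 50% it was 0.275% for narrow and 2.79% for wide peaks, and wide peaks stood at 5.46% with the control summit inside the KO peak. These rules ask for more overlap by construction. The median CpG ratio was 0.880 for genes with a start within 250 bp of the summit. Of 152 alternative counts for single lists, 27 moved by more than 1.5 times; most lists hold few members. No paired analysis was possible because there was just 1 library in every group, and none could be left out. With 8 to 30 tags per summit, differences between single members were mostly not resolved.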

Other observations

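Genes at the members were longer than most. Their median length was 30.8 kb, against 17.2 kb for all protein-coding genes and 45.1 kb for genes at wide peaks. The members were spread over all autosomes and the X chromosome. Per 100 protein-coding genes there were 1.66 members over the genome, 2.66 on chromosome 1 (Poisson interval 1.82 to 3.75), 0.739 on chromosome 7 (0.414 to 1.22) and 0.725 on the X chromosome (0.291 to 1.49), and the Y chromosome had 0 members at 256 genes. No cause of these differences was tested.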
